A study of Mus musculus with 34 samples.

Results

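The response of the D647V glucocorticoid receptor line to dexamethasone (Dex) was followed by total RNA sequencing. It comprised 6 of the 34 libraries of the series, chosen by their labels alone: 3 from cells given 100 nM Dex and 3 from cells given its ethanol vehicle (EtOH), both for 2 h. The cells derive from 3617, a mouse mammary adenocarcinoma line in which the receptor gene was knocked out and GFP-tagged mouse glucocorticoid receptor (GR) was stably expressed in its place, here in the form D647V, a valine for an aspartate in the ligand-binding domain. Every library used here carried that knockout and a GFP-tagged receptor, in 5 µg/ml tetracycline and, for at least 24 h before treatment, in 10% charcoal-stripped serum, with 5% Drosophila S2 cells added at harvest. The lines set beside D647V, from the same library set, expressed the wild-type receptor (WT, 2 libraries per treatment) or the form labelled D647V-tetra (3 per treatment); the labels do not say what tetra stands for or which promoter drives the receptor. WT libraries of the other library set (3 per treatment), fitted with the Y551A and Y551A-Dim lines of that set, served to choose genes for comparison. The labels give 1 line per receptor form, so the substitution and other differences between lines cannot be told apart. Nothing in them tells if the replicates were grown as separate cultures, so the p-values measure the spread between these samples, which may be technical.

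GR is a hormone-activated transcription factor. Without ligand it is held in the cytoplasm by chaperones of the HSP90 machinery; with ligand it enters the nucleus, binds palindromic DNA elements and raises the transcription of genes such as the clock repressor Per1 and the anti-inflammatory regulator Tsc22d3, while many inflammatory and growth factor genes are lowered. Dex is a synthetic ligand of high affinity, and mammary cells are a classic system for its action.

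The 6 libraries held between 66993130 and 79776573 counted reads and between 21971 and 23005 genes with a count. Levels are CPM, counts scaled to library size by the trimmed mean of M-values, and changes are log2 fold changes, Dex against EtOH, with their standard error (SE). A gene is said to have risen or fallen where its adjusted p was below 0.05, from the quasi-likelihood test of edgeR with the Benjamini-Hochberg correction over 17535 genes. The label mammary adenocarcinoma was checked against marker genes. Of 10 luminal epithelium markers, 3 (Epcam, Pgr and Elf5) had no count in any of the 6 libraries, the keratin Krt8 lay between 0.319 and 0.558 CPM, and Krt18 had at most 2 counts. The luminal transcription factor genes Gata3 and Esr1 were detected, at 5.45 to 9.94 and 3.33 to 4.33 CPM. The basal list summed to 3.68 to 4.77 CPM, most of it the keratin Krt14, with Krt5 and Krt17 at 0. The fibroblast list summed to between 6447 and 7247 CPM, nearly all of it from Vim, an intermediate filament gene (4295 CPM in EtOH), and Col1a2. The growth factor receptor genes Pdgfrb and Pdgfra lay at 155 to 169 and 26.2 to 30 CPM, while Lum was at 0 and Col1a1 at 1.53 to 2.33 CPM. Of the 8 fibroblast markers, 6 averaged at least 1 CPM. Immune, endothelial and adipocyte lists summed to at most 4.37, 2.70 and 0.194 CPM. The epithelial markers Epcam, Cdh1, Krt8 and Krt18 were thus absent or below 1 CPM in cells labelled as a mammary carcinoma. The first library of each treatment stood somewhat apart from the other libraries of its treatment: chi-square per degree of freedom between replicates was 24.6 and 35.6 with the first EtOH library against 13.95 without it, and 20.5 and 30.2 against 13.01 in Dex, and 150 and 185 genes were called without it.

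In D647V cells Dex raised more genes than it lowered, and 22 of the 141 risen genes were on the list of classic GR-induced genes. The siderophore-binding protein gene Lcn2 and the matricellular protein gene Ccn2 rose most among the named genes, followed by Per1 and the acute-phase protein gene Orm3. In all, 165 genes passed the test (0.941% of those tested), of which 141 rose (0.804%) and 24 fell (0.137%). At a change of at least 1.5-fold there were 72 (0.411%), 69 higher and 3 lower; 35 rose at least 2-fold, and none fell that far. The median change was 0.57 among genes that rose and -0.38 among those that fell, against -0.01 over all genes tested. Protein-coding genes made up 130 of the 141 and 22 of the 24. The level ranges of the treatments did not overlap for any of these 165 genes, and the same held for 13.4% of all genes tested.

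**Figure D1:**
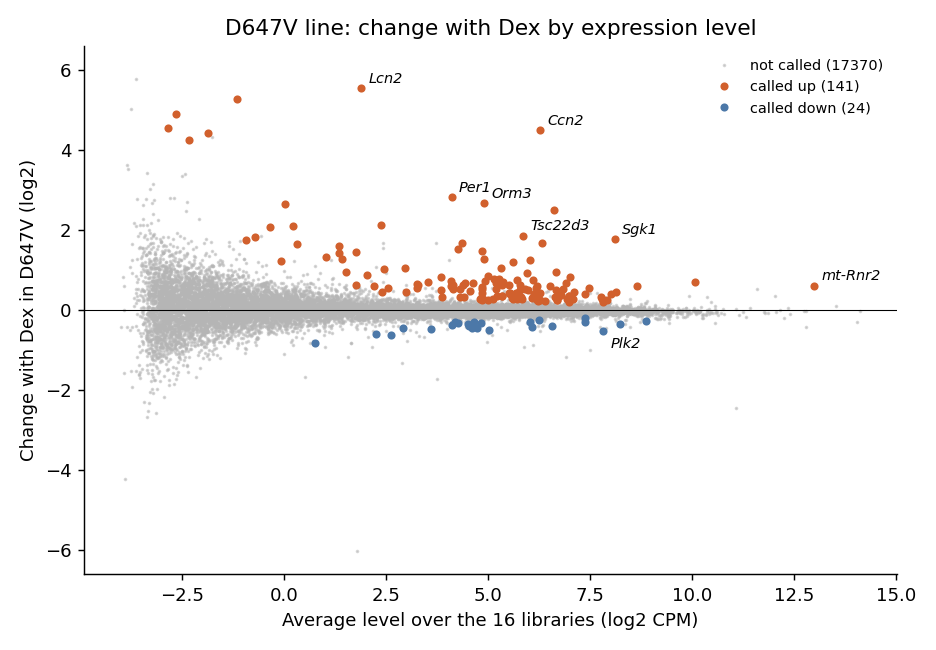
Change with Dex in D647V (log2, vertical axis) against the average level over the 16 libraries of the library set (log2 CPM, horizontal axis), 1 point per gene tested. Orange points are the 141 genes that rose and blue points the 24 that fell; 1 gene that was not called lies outside the axis.

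Promoters of the genes with the largest rises are shown because GR acts through DNA elements that can lie near a start site. The windows, from RefSeq on build GRCm38.p6, run from 250 bases before to 50 after a listed start; 11 of the 14 genes with the largest rise by the naming rule had an entry. Capitals mark matches, on either strand, to AGAACA, a single arm of the palindromic GR element. The windows of Lcn2 (chr2:32387690-32387989, minus strand), of the first Per1 entry (chr11:69098699-69098998, plus strand) and of Orm3 (chr4:63355908-63356207, plus strand) were taken by rank. The window of the fifth Sgk1 entry (chr10:21993640-21993939, plus strand) was chosen after its letters were seen.
Lcn2: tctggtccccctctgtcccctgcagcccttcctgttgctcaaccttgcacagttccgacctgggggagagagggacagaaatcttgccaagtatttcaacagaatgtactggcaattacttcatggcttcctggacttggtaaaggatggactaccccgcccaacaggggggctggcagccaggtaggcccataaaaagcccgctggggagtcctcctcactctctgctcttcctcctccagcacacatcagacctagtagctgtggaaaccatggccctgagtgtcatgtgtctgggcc
Per1: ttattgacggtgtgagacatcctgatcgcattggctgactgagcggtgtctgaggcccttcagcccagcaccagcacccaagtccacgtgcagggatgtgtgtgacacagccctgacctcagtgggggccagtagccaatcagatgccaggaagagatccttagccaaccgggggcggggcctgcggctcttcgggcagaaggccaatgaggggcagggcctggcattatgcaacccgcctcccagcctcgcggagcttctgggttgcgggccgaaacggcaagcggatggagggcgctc
Orm3: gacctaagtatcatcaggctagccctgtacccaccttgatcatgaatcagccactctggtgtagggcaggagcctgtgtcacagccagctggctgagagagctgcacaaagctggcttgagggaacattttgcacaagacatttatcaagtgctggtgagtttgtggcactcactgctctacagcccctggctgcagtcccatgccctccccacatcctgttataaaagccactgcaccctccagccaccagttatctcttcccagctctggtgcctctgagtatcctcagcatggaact
Sgk1: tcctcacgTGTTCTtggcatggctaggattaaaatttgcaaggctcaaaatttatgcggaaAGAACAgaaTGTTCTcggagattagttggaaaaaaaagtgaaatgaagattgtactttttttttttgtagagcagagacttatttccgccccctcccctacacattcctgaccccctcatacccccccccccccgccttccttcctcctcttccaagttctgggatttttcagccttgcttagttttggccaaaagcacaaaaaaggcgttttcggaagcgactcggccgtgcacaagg

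No match to AGAACA stood in the windows of Lcn2, Per1 and Orm3, which says only that these letters are not in these windows. The Sgk1 window held 3 matches, and 2 of them formed the full palindrome, AGAACA followed after 3 bases by TGTTCT, at chr10:21993701-21993715, 189 bases before the start of that entry and 965 before the last of the 6 Sgk1 starts listed. Among the windows of the 10516 tested genes with an entry, this was the 1 full match, 0.00746% of 13400 windows, and 3 of all 32851 windows of the table held one (0.00913%). The single arm was found in 16 of the 104 risen genes with an entry (15.4%), in 1 of the 15 fallen genes (6.67%) and in 1595 of the 10516 tested genes (15.2%), so the share among risen genes was near that of all tested genes. A match is a description of letters and not of binding.

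The receptor transcript itself did not pass the test. Nr3c1, whose exonic reads include those of the GFP-tagged receptor, stood at 285, 289 and 287 CPM in EtOH and at 290, 301 and 298 CPM in Dex. The Dex libraries were slightly higher, by 0.05 ± 0.04 (log2, SE; adjusted p = 0.89). Of 28 GR chaperones and cofactors, 1 rose, the immunophilin gene Fkbp5, whose protein lowers the affinity of GR for hormone; none fell, and the list's median was 0.02. Fkbp5 stood at 80.1, 82.4 and 79.8 CPM in EtOH and at 117, 111 and 119 CPM in Dex, with no overlap, a rise of 0.52 ± 0.05.

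Per1, Tsc22d3 and Sgk1, 3 members of the list of classic GR-induced genes, rose. Per1 stood at 4.49, 4.42 and 3.98 CPM in EtOH and at 31.1, 29.6 and 30.5 CPM in Dex. Every Dex library was several times above every EtOH library, a 7.08-fold rise for the gene at chr11:69095217-69109960 on mm10 (2.82 ± 0.14, adjusted p = 7.1e-10 by edgeR). Tsc22d3, which encodes the leucine-zipper protein GILZ, an antagonist of inflammatory transcription factors, stood at 20.2, 21.7 and 20.5 CPM in EtOH and at 80.0, 74.2 and 72.4 CPM in Dex. Its groups were likewise far apart, by 3.63-fold (1.86 ± 0.05). Sgk1, a kinase that regulates ion transport and cell survival, was already abundant, with 117, 122 and 121 CPM in EtOH, and reached 411, 418 and 395 CPM in Dex. Its rise, for the gene at chr10:21882184-21999903 (mm10), was 3.40-fold (1.76 ± 0.04, adjusted p = 4.2e-14). On a scale per length of exonic sequence, Sgk1 went from 24.5 to 83.2 RPKM (reads scaled to depth and to exonic length), Tsc22d3 from 4.79 to 17.4 and Per1 from 0.763 to 5.40, so Sgk1 was the highest of these transcripts under both treatments.

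Smaller rises were seen for other genes of that list. Errfi1, an inhibitor of the epidermal growth factor receptor, rose by 0.94 ± 0.07, from a mean of 34.1 to 65.3 CPM. The transcription factor gene Klf9 rose by 0.77 ± 0.06, the metal-binding Mt1 by 0.71 ± 0.06, and Dusp1, a phosphatase that inactivates MAP kinases, by 0.57 ± 0.09. Dusp1 stood at 11.5, 11.2 and 13 CPM in EtOH and at 19.0, 16.7 and 17.3 CPM in Dex; the lowest Dex library was above the highest EtOH library. The cell cycle inhibitor gene Cdkn1a rose by 0.50 ± 0.09, the glutamine synthetase gene Glul by 0.45 ± 0.04 and the transglutaminase gene Tgm2 by 0.33 ± 0.06. The transcription factor gene Cebpd was at 5.26 to 5.79 CPM in EtOH and 7.09 to 7.38 CPM in Dex, without overlap, and did not pass the test (0.37 ± 0.12, adjusted p = 0.34). Of 31 classic GR-induced genes tested (38 listed), 22 rose, none fell, and the median was 0.57.

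Genes of secreted products were among those with the largest changes. Lcn2 was barely counted without hormone, at 0.0278, 0.0762 and 0.102 CPM, and stood at 3.20, 3.58 and 3.25 CPM in Dex. The groups were far apart, but the fitted rise of 5.55 ± 0.35 rests on few EtOH reads. Ccn2, which binds matrix and growth factors, stood at 8.49, 7.62 and 8.46 CPM in EtOH and at 194, 180 and 180 CPM in Dex. That was, for the gene at chr10:24595442-24598683 (mm10), a 22.5-fold rise (4.49 ± 0.06, adjusted p = 8.7e-18), on far deeper counts. Orm3 stood at 3.48, 2.69 and 3.22 CPM in EtOH and at 17.7, 21.6 and 20.1 CPM in Dex, again with no overlap. Its rise was 6.34-fold (2.66 ± 0.11). Orm3 has close relatives, Orm1 and Orm2, among which counting could split reads; Orm1 rose by 2.10 ± 0.24 and Orm2 by 2.09 ± 0.30, both from below 0.3 CPM.

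The other named genes with large rises belong to varied classes. Fabp4, a fatty acid-binding protein of adipocytes and macrophages, rose by 2.13 ± 0.19 and the calcium-binding S100a7a by 1.59 ± 0.19, both from under 2 CPM in every EtOH library. The secreted proteoglycan gene Tsku stood at 35.6, 37.9 and 36.3 CPM in EtOH and at 118, 114 and 117 CPM in Dex, a rise of 1.67 ± 0.08. Spsb1, a SOCS-box adaptor of ubiquitin ligases, rose by 1.68 ± 0.08, the alpha-arrestin Arrdc2 by 1.54 ± 0.07 and the small GTPase Arl4d by 1.48 ± 0.08. Tns1, a focal adhesion protein, ranged from 14.04 to 20.4 CPM in EtOH and from 39.7 to 41.4 CPM in Dex, a rise of 1.27 ± 0.16. Hras stood at 122 to 129 CPM in EtOH and at 165 to 168 CPM in Dex, a rise of 0.41 ± 0.06. The parental cells are known for an array of a hormone-responsive viral promoter driving a ras gene, and reads of that array cannot be told apart from those of Hras here.

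**Figure D2:**
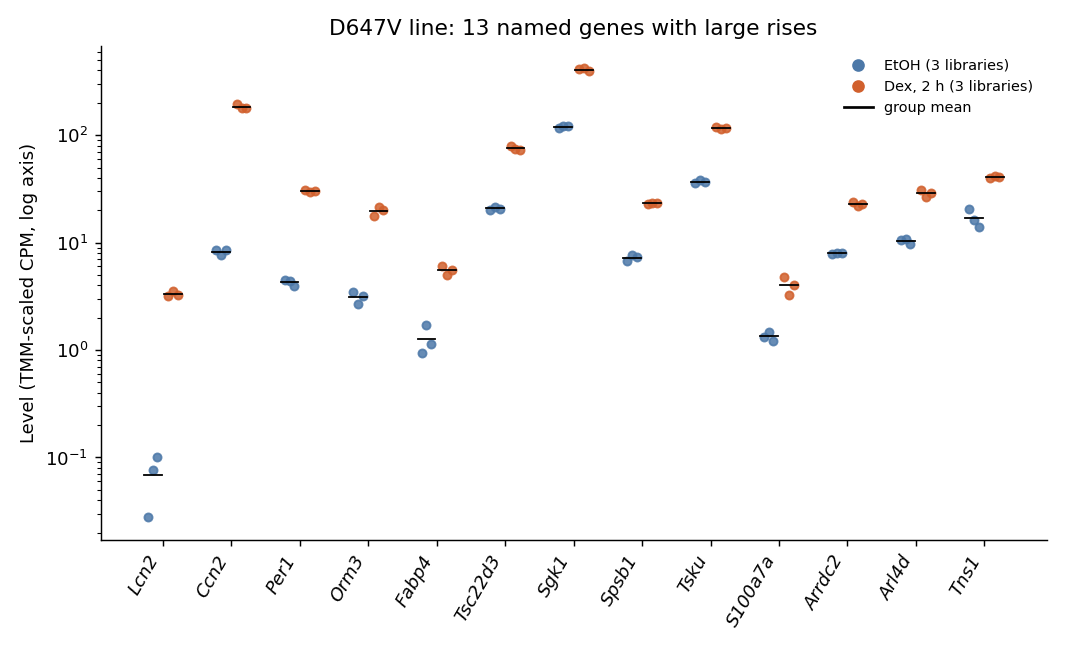
Levels (CPM, log axis) of 13 named genes with large rises in each of the 3 EtOH and 3 Dex libraries of D647V; black lines are group means. For each gene every Dex library lies above every EtOH library, and the spread within a group is widest for Lcn2 in EtOH.

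The falls were smaller than the rises. Plk2, a kinase of the polo-like family, stood at 263, 286 and 288 CPM in EtOH and at 195, 191 and 193 CPM in Dex. For this gene, at chr13:110395046-110400844 on mm10, all Dex libraries were below all EtOH libraries, a fall to 0.691 of the EtOH level (-0.53 ± 0.05, adjusted p = 4.2e-06). Ptgs2, the inducible cyclooxygenase of prostaglandin synthesis, stood at 112, 112 and 119 CPM in EtOH and at 87.1, 86.2 and 86.1 CPM in Dex. It changed by -0.41 ± 0.05, again without overlap. The MAP kinase phosphatase genes Dusp4 and Dusp6 changed by -0.42 ± 0.06 and -0.44 ± 0.10, and Hbegf, a ligand of the epidermal growth factor receptor, by -0.37 ± 0.06. The neurotrophin gene Bdnf changed by -0.49 ± 0.07, the dioxin receptor gene Ahr by -0.46 ± 0.07, the growth arrest gene Gadd45a by -0.44 ± 0.07 and the small GTPase gene Rnd1 by -0.39 ± 0.06. The remaining named falls were those of the transcription factor gene Snai2 (-0.62 ± 0.13), the lectin gene Clec2d (-0.59 ± 0.12), the long non-coding RNA Wincr1 (-0.47 ± 0.11), Ankrd1 (-0.36 ± 0.07) and Phlda1 (-0.34 ± 0.08).

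The calls of several of these falls did not hold with a library left out, while the changes stayed below 0. The calls of Snai2, Dusp6, Wincr1 and Phlda1 each ended on leaving out any 1 of 5 of the 6 libraries, that of Ankrd1 with 4 and that of Clec2d with 3, with adjusted p of up to 0.144, 0.226, 0.365, 0.322, 0.144 and 0.148 in that order. The changes at those highest values lay between -0.27 for Phlda1 and -0.60 for Snai2. The count of fallen genes was 11 without the second Dex library and 48 without the first.

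**Figure D3:**
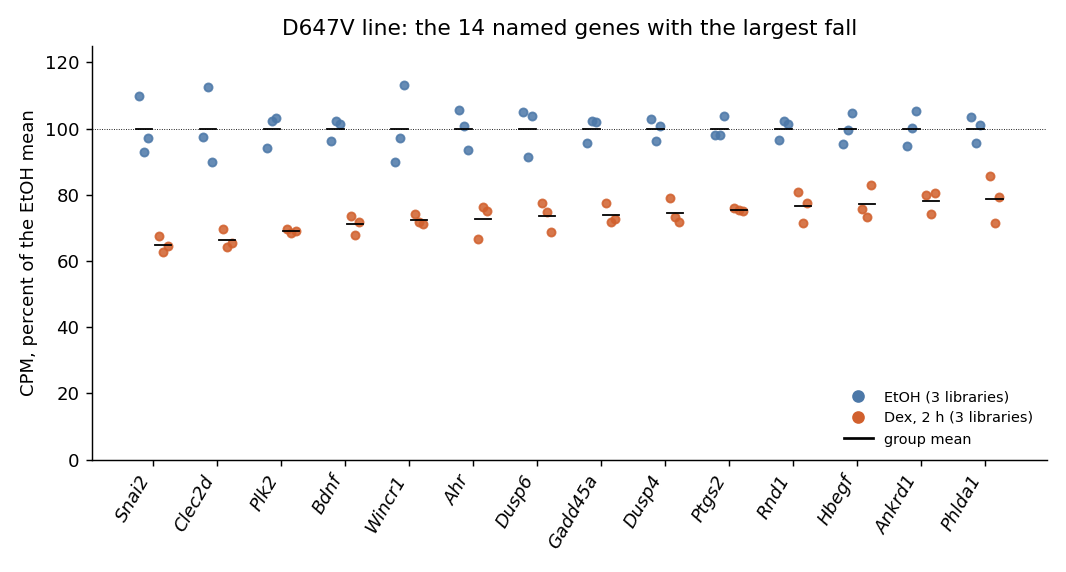
Levels of the 14 named genes with the largest fall, as percent of each gene's EtOH mean, in the 3 EtOH and 3 Dex libraries of D647V; black lines are group means. For each gene the Dex libraries lie below the EtOH libraries, with Snai2 lowest and Phlda1 closest to the EtOH level.

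Groups of genes with a shared role differed in how many members passed the test. Over all genes tested, 0.804% rose and 0.137% fell. Of 16 circadian clock genes, 4 rose, namely Per1, its relative Per2 (0.69 ± 0.09) and the repressors Bhlhe41 (0.33 ± 0.06) and Nfil3 (0.27 ± 0.06), and none fell. Of 28 genes of lipid and glucose metabolism, 5 rose and none fell: Fabp4, the insulin receptor substrate gene Irs2 (0.85 ± 0.09), the lipid droplet gene Plin4 (0.61 ± 0.10), Glul and the lipase inhibitor gene Angptl4 (0.27 ± 0.06). Of 24 YAP and TGF-beta targets, 3 rose, among them Ccn2 and Id1 (0.40 ± 0.09), while Snai2 and Ankrd1 fell. Of 20 growth arrest and p53 targets, Cdkn1a and Gadd45g (0.42 ± 0.06) rose, while Plk2, Gadd45a and Btg1 (-0.31 ± 0.04) fell. Medians of these lists lay between -0.07 and 0.01. The calls of Id1 and Nfil3 ended on leaving out any of 4 libraries and that of Angptl4 with any of 5 (adjusted p of up to 0.143, 0.113 and 0.136).

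Falls in the inflammatory, immediate early and growth factor lists are read beside the 0.137% of all tested genes that fell. Of 19 inflammatory and NF-kB targets tested (32 listed), the chemokine gene Cxcl1 rose (0.54 ± 0.11), Ptgs2 and the transcription factor gene Irf1 (-0.31 ± 0.06) fell, and the list's median was -0.06. The chemokine gene Ccl2 was at 34.7 to 38.6 CPM in EtOH and 31.2 to 33.4 CPM in Dex, lower in every Dex library, and did not pass the test (-0.18 ± 0.07, adjusted p = 0.57). Of 25 immediate early and AP-1 genes, none rose and Klf4 (-0.32 ± 0.06) and Ier5 (-0.29 ± 0.05) fell, with a median of -0.13; Fos was at -0.20 ± 0.21. Of 21 genes of growth factor and MAP kinase feedback, none rose and Dusp4, Dusp6, Hbegf and Phlda1 fell, with a median of -0.15. Myc stood at 71.7 to 78.4 CPM in EtOH and 74.0 to 76.5 CPM in Dex, overlapping. The calls of Cxcl1, Irf1 and Klf4 ended with any of 4 libraries left out and that of Ier5 without the second EtOH library (adjusted p of up to 0.135, 0.148, 0.128 and 0.0642).

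Over all genes tested, 0.941% passed the test, 0.804% higher and 0.137% lower. At those shares a list of 30 genes or fewer would hold few or no calls. None of 30 cell cycle genes, 26 extracellular matrix genes, 17 integrated stress response genes, 12 interferon response genes, 11 genes of ion channels and sodium transport and 25 ribosomal protein genes passed the test. Among them, 16 of the 17 stress response genes and 24 of the 25 ribosomal protein genes had a change at or below 0 without passing it, with medians of -0.08 and -0.10; of all 17535 genes tested, 8351 were above 0. Of 24 cholesterol synthesis genes, Insig1, which retains the sterol sensor in the endoplasmic reticulum, fell (-0.28 ± 0.06), a call that ended with any of 5 libraries left out (adjusted p of up to 0.286). Of 18 hypoxia targets, the vasodilator peptide gene Adm rose (0.77 ± 0.06), and of 14 alpha-arrestin and SOCS-box genes, Arrdc2 and Spsb1 rose. Of the 4 luminal markers tested, Gata3, a transcription factor of mammary luminal cells and T cells, rose by 0.62 ± 0.10, from 5.45, 6.62 and 6.56 CPM to 9.94, 9.62 and 9.04 CPM. The luminal list's sum was 9.17 to 11.6 CPM in EtOH and 13.8 to 14.2 CPM in Dex; without Gata3 it was 3.73 to 4.95 and 4.26 to 4.78 CPM, which overlapped. None of the 4 basal, 6 fibroblast, 2 immune, 2 endothelial and 1 adipocyte markers tested passed. In bulk RNA, more cells of a type and more RNA per cell cannot be told apart.

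**Figure D4:**
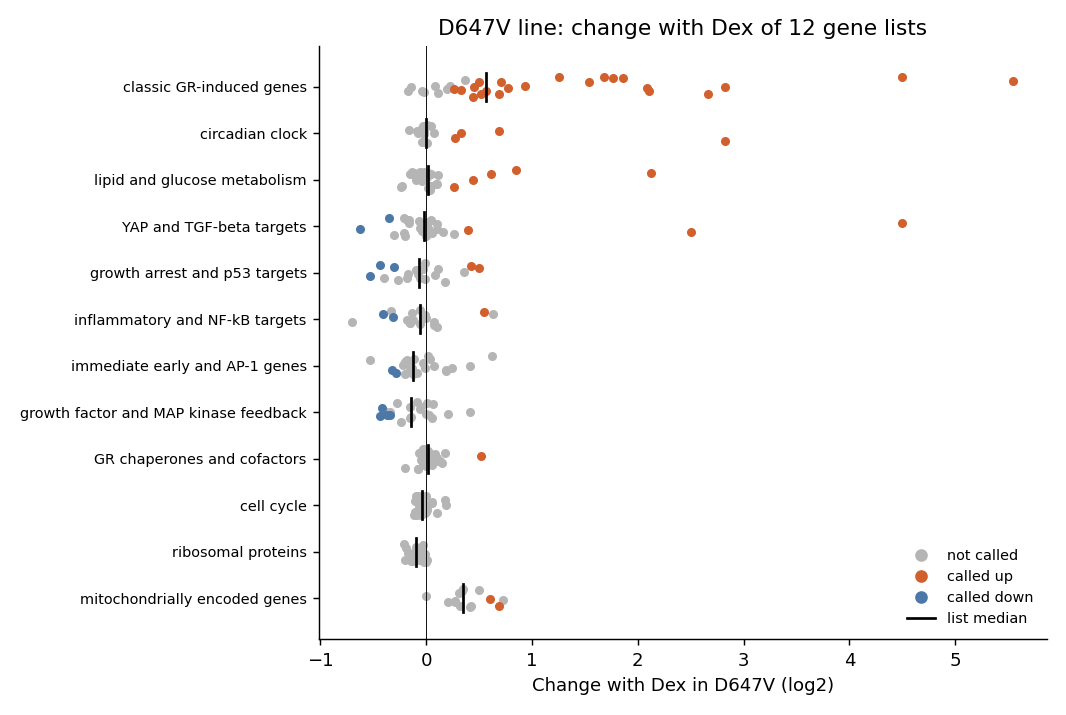
Change with Dex in D647V (log2) of each tested gene of 12 lists; orange points rose, blue points fell, grey points did not pass the test and black bars are list medians. The classic GR-induced genes reach from -0.18 to 5.55, while cell cycle and ribosomal protein genes stay close to 0.

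The shares of some RNA classes in the counts differed between the treatments. The mitochondrial ribosomal RNAs mt-Rnr1 and mt-Rnr2 rose by 0.69 ± 0.13 and 0.60 ± 0.08, and all 14 mitochondrially encoded genes tested had a change above 0, as did 8351 of all 17535 genes; 2 of the 14 were called and 12 were not, with a median of 0.34. Mitochondrial ribosomal RNA took 0.744 to 0.802% of counts in EtOH and 1.13 to 1.25% in Dex. Small structural RNAs took 1.88 to 2.26% in EtOH and 1.40 to 1.82% in Dex. Both shares separated the treatments without overlap. They did so in D647V-tetra as well, where mitochondrial ribosomal RNA took 0.735 to 0.856% in EtOH and 1.08 to 1.13% in Dex. Small structural RNAs there took 2.34 to 2.46% in EtOH and 1.72 to 2.01% in Dex. In WT of the same library set both shares overlapped between treatments. The part of these shares in the other results was not tested. The call of mt-Rnr1 ended without the third EtOH or the third Dex library (adjusted p of up to 0.0586).

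Set beside the WT receptor of the same library set, the D647V response took the same direction for nearly all called genes, with 140 of the 141 risen and all 24 fallen genes having the same sign in WT, and it was smaller than in WT for 120 and 20 of them. The comparison used no library in common between the responses, and the difference was tested in the same fit. WT gave 302 called genes (1.72%), 236 higher (1.35%) and 66 lower (0.376%). Of the 141 genes that rose in D647V, 128 also rose in WT, which is 90.8% of the D647V list and 54.2% of the WT list; of the 24 that fell, 21 also fell in WT, 87.5% and 31.8%. The difference of response was called for 33 genes (0.188%), 32 with a lower value in D647V (0.182%) and 1 with a higher value (0.0057%). WT had 2 libraries per treatment, which bears on both counts.

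Of the 33 genes with a called difference, 12 were on the list of classic GR-induced genes. Sgk1 rose from a mean of 133 to 836 CPM in WT and from 120 to 408 CPM in D647V. The difference of response was -0.88 ± 0.07 (adjusted p = 5.9e-06 by edgeR), with similar starting levels. Arrdc2 rose 6.24-fold in WT and 2.90-fold in D647V, from means of 8.05 and 7.94 CPM, a difference of -1.10 ± 0.10. Errfi1 rose 4.25-fold in WT and 1.91-fold in D647V, a difference of -1.15 ± 0.10. Fkbp5 rose 2.32-fold in WT and 1.43-fold in D647V, a difference of -0.69 ± 0.08. The difference was -1.23 ± 0.18 for Orm3, -1.12 ± 0.19 for the microtubule-associated protein gene Map7d2, -1.05 ± 0.12 for Arl4d, -0.97 ± 0.13 for Spsb1, -0.87 ± 0.10 for Mt1, -0.69 ± 0.08 for Tsc22d3 and -0.53 ± 0.06 for Glul. Orm3 lost its call with limma-voom (adjusted p = 0.0573) and Map7d2 with the groups of the contrast alone (adjusted p = 0.0769). Orm3 rose by 3.90 in WT of this library set but by 2.55 in WT of the other set, against 2.66 in D647V. The other genes given here rose more in WT of the other set than in D647V. Differences between the sets were not tested. The 12 listed genes with a called difference were all lower in D647V, but so were 32 of the 33 over all genes tested. The list was chosen with earlier results of these data known. Among the 31 listed genes tested the median response was 0.57 in D647V and 1.10 in WT.

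For other named genes the difference was not called, or its call was lost in other settings. Per1 rose 8.49-fold in WT and 7.08-fold in D647V, a difference of -0.26 ± 0.21 (adjusted p = 0.76). Klf9 rose 1.99-fold in WT and 1.70-fold in D647V, a difference of -0.23 ± 0.10 (adjusted p = 0.70). For Dusp1 the difference was -0.54 ± 0.14 (adjusted p = 0.36), for Tsku -0.65 ± 0.13 and for S100a7a -1.57 ± 0.31 (both adjusted p = 0.054). Tsku passed with DESeq2, without the filter on low counts and in 3 other settings, S100a7a with DESeq2 and without the filter, and Dusp1 without the filter (adjusted p = 0.00737). For the highly induced Ccn2 the difference was -0.48 ± 0.09, and for Dusp4, the gene with a higher value in D647V, 0.47 ± 0.09, with changes of -0.89 in WT and -0.42 in D647V. These calls were fragile: that of Ccn2 ended for 9, Dusp4 for 7 and Map7d2 for 4 of the 10 libraries left out in turn (adjusted p of up to 0.307, 0.26 and 0.127). Ptgs2 was at -0.41 in D647V, where it fell, and at -0.10 in WT, where it did not pass; the difference of -0.31 ± 0.08 did not pass either (adjusted p = 0.33), and in the WT libraries of the other set Ptgs2 fell (-0.49, adjusted p = 7.4e-08). In the same way, 13 risen and 3 fallen genes of D647V were not called in WT, and for none of these 16 was the difference called (1205 genes had an unadjusted p below 0.05 for the difference).

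To compare responses over genes not chosen from D647V, genes were taken from the separate WT libraries of the other library set, where 549 of 16140 genes (3.4%) were called, 323 higher (2%) and 226 lower (1.4%). Of the genes that rose there, 321 were tested here. Their median change was 0.45 in WT and 0.30 in D647V. In D647V 317 had a change above 0, 133 rose, and 265 had a lower change than in WT. For 31 of them the difference was called lower and for none higher. Of those that fell there, 226 were tested here, with medians of -0.25 in WT and -0.14 in D647V; 22 fell in D647V and 1 had a called difference. Among 113 genes up at least 1.5-fold in both WT sets, the D647V change was a median of 60.8% of the WT change on the log2 scale (quartiles 49.2% and 77.3%), a description, since WT also chose these genes; 33 genes were under 50% and 8 at 100% or more. Sgk1 was at 66.6%, Tsc22d3 at 73.0%, Fkbp5 at 42.8% and Per1 at 91.5%.

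**Figure D5:**
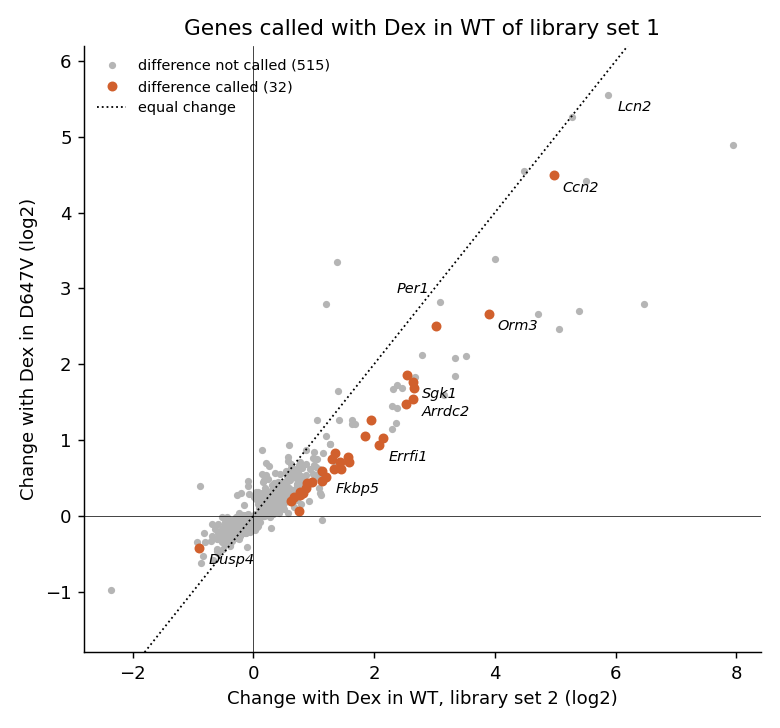
Change with Dex in D647V (log2, vertical axis) against that in WT of the same library set (horizontal axis) for the 547 tested genes called in WT of the other library set; the dotted line marks equal change. Orange points are the 32 genes whose difference was called, and 1 gene lies outside the axes; Sgk1, Arrdc2 and Errfi1 lie under the dotted line and Dusp4 above it among the falls.

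Without hormone, D647V and WT cells differed at 1290 genes (7.36%), 803 higher (4.58%) and 487 lower (2.78%) in D647V. Nr3c1 was lower in D647V, with 287 against 339 CPM (-0.24 ± 0.05, adjusted p = 0.0035), and its part in the smaller response was not tested. In D647V-tetra, Nr3c1 was at 263 CPM in EtOH. The call of Nr3c1 between D647V and WT ended with the replicate number as a block (adjusted p = 0.228 by edgeR). That fit compares the levels fitted for replicate 1 of each line, so it cannot tell if pairing bears on this call. The named genes highest in D647V against WT were Ssu2, the lectin receptor gene Clec1a, the matrix link protein gene Hapln1, S100a7a, Dynap and the leukocyte integrin gene Itgb2, with differences from 1.00 to 1.53 (log2). Among the lowest were the mast cell tryptase gene Tpsab1, the cadherin gene Cdh5, the Wnt-binding protein gene Sfrp2, Ldb3 and Mustn1, with Tpsab1 at -2.67 ± 0.12. Leaving out the first WT library of the EtOH group left 364 called genes and ended the call of S100a7a (adjusted p = 0.116), which ended with the groups of the contrast alone as well (adjusted p = 0.0696).

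Between the lines that carry the same substitution, the difference of response was called mostly in one direction. D647V-tetra gave 3367 called genes (19.2%), among them 131 of the 141 genes that rose in D647V (92.9% of that list, 6.6% of the 1984, or 11.3% of genes tested, that rose in D647V-tetra). The difference of response, D647V-tetra minus D647V, was called for 153 genes (0.873%), 136 higher (0.776%) and 17 lower (0.0969%). Orm3 rose to a mean of 95.5 CPM in D647V-tetra and to 19.8 CPM in D647V, a difference of 2.15 ± 0.16. The magnesium transporter gene Nipal1 differed by 1.63 ± 0.17, Adgra1 by 1.27 ± 0.13, the interleukin 6 receptor gene Il6ra by 1.10 ± 0.11, the mitochondrial carrier gene Slc25a33 by 1.02 ± 0.15 and the kinase gene Sik1 by 0.97 ± 0.13. In the other direction, Ccn2 reached 39.7 CPM in D647V-tetra and 184 CPM in D647V, from 8.11 and 8.19 CPM, a difference of -2.20 ± 0.09. Sgk1 reached 192 CPM in D647V-tetra and 408 CPM in D647V, a difference of -0.93 ± 0.06. The differences were -0.92 ± 0.18 for Cxcl5, -0.55 ± 0.12 for the plasminogen activator gene Plau, -0.46 ± 0.11 for Ccl2 and -0.44 ± 0.07 for Aldh1a7, of which Cxcl5, Plau and Ccl2 lost the call with 7, 10 and 9 of the 12 libraries left out in turn (adjusted p of up to 0.0758, 0.107 and 0.152). The count of 153 fell to 49 without the second EtOH library of D647V and rose to 271 without the second EtOH library of D647V-tetra.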

How the data were processed

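Read counts for each gene name were deposited by the authors, 1 file per library and with no normalization, per the file headers. The authors counted exonic reads with featureCounts 2.0.3, strand option 2 (reverse) and the vM21 annotation of GENCODE, each mate of a pair counted by itself, per the file headers. Base calling with bcl2fastq 2.17, trimming with cutadapt and alignment to mm10 with STAR are named in the submitters' processing notes; reads were 100 bp paired, per the labels' protocols. The labels describe 2 library kits by batch without assigning libraries, so kit could not be entered in the model. The Drosophila spike-in was not used here. Counting mates separately makes counting error look smaller than it is, and gene names shared by copies cannot be split.

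Counts of the 16 libraries of the library set that holds D647V were fitted with edgeR 4.0.16 in R 4.3.3: filterByExpr kept 17535 of 55341 genes, scaling was by the trimmed mean of M-values, and the quasi-likelihood test used 1 mean per group with 10 residual degrees of freedom (biological coefficient of variation 8.62%). Tests were two-sided with Benjamini-Hochberg adjustment, called below 0.05; the SE is the absolute change divided by the square root of the F statistic. The other set, 18 libraries of WT, Y551A and Y551A-Dim (3 per line and treatment), was fitted separately with 16140 genes; only its WT response is used. DESeq2 1.42.0, limma 3.58.1 (voom), another scaling, other filters, the replicate number as a block, the groups of a contrast alone and leaving out each library were tried. Scripts were tested on simulated data. Replicates of D647V had correlations of log2 CPM of 0.9906 to 0.9935 and differed by more than sampling noise.

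The text names the 14 highest and 14 lowest called genes of the response that do not overlap and reach 1 on the average log2 CPM scale, passing over predicted and clone-named genes; fixed target genes; of gene lists the members with the lowest p; and 6 in each direction for differences. Genes that these rules name but the text does not give are not reported here. Called list members are named where there were 5 or fewer, chosen after their values were seen. So were Orm1, Orm2, Epcam, Pgr, Elf5, Krt18, Krt5, Krt17, Cdh1, Esr1, Lum, Col1a1, Pdgfrb and Vim. The members and lists were chosen with earlier results of these data known.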

Additional observations from a re-analysis of the deposited data

Results flagged for a closer look

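The Dex response differed between lines for these genes, named above for each comparison, by the test of the difference itself in edgeR's quasi-likelihood fit. All values are differences of log2 changes. In D647V minus WT, the differences were -1.23 for Orm3, -1.15 for Errfi1, -1.12 for Map7d2, -1.10 for Arrdc2, -1.05 for Arl4d, -0.97 for Spsb1, -0.88 for Sgk1, -0.87 for Mt1, -0.69 for Fkbp5, -0.69 for Tsc22d3, -0.53 for Glul, -0.48 for Ccn2 and 0.47 for Dusp4. In D647V-tetra minus D647V, they were 2.15 for Orm3, 1.63 for Nipal1, 1.27 for Adgra1, 1.10 for Il6ra, 1.02 for Slc25a33, 0.97 for Sik1, -0.44 for Aldh1a7, -0.46 for Ccl2, -0.55 for Plau, -0.92 for Cxcl5, -0.93 for Sgk1 and -2.20 for Ccn2. Orm3, Sgk1 and Ccn2 stand in both sets as listed, which share the D647V libraries. Other named genes passed as well. Among them, D647V minus WT was -0.83 for Gata3, -0.80 for Adm and -0.45 for Aldh1a7. D647V-tetra minus D647V was 0.82 for Spsb1, 0.81 for Adm, 0.80 for Errfi1, 0.79 for Tgm2, 0.76 for Dusp1 and 0.59 for Hras. It was also 0.35 for Fkbp5, 0.27 for Glul, -0.34 for Btg1, -0.35 for Tsc22d3 and -0.41 for Plk2.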

How the results depend on the processing

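The Dex response of D647V gave 165 calls; DESeq2 made 238 that held all 165, and 44 falls. RLE scaling, the stricter filter, limma-voom and the contrast's own groups gave 163 to 172. Without the filter on low counts there were 380 (250 higher, 130 lower, 140 at least 1.5-fold); the cause was not tested. Leaving out a library gave 121 to 185 calls (108 to 137 higher, 11 to 48 lower, 58 to 86 at least 1.5-fold). Calls ended with the contrast's own groups for Angptl4, Clec2d, Dusp6 and Id1, with the stricter filter for Phlda1 and Wincr1, and with RLE scaling for Wincr1 (adjusted p of up to 0.113). Myc ranged from -0.012 (without the first EtOH library) to 0.053 (without the third).

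The difference from WT gave 60 calls with DESeq2 (7 higher, 53 lower), 244 without the filter (142 and 102, and 93 at least 1.5-fold) and 19 to 35 with a library left out (0 to 3 higher, 19 to 35 lower, 16 to 25 at least 1.5-fold). Ccn2 lost that call under RLE scaling, the stricter filter, limma-voom and its own groups (adjusted p 0.0517 to 0.205). That from D647V-tetra, where Ccl2 lost its call under RLE scaling (0.0505), gave 474 with DESeq2 (386 higher, 88 lower, 117 at least 1.5-fold; later counts keep this order), 936 without the filter (752, 184 and 336) and 49 to 271 with a library left out (42 to 242, 6 to 29, and 25 to 102). The EtOH baseline gave 761 with its own groups alone (457, 304 and 134) and 364 to 1057 with a library left out (212 to 668, 152 to 389, and 107 to 223). Leaving out a WT library left 1 in its group, assumed to vary like the other groups.

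The labels do not say if the replicate number pairs the samples. Same-numbered Dex and EtOH libraries of D647V deviated from their group means with r of -0.183, -0.0549 and -0.0737. These values cannot settle pairing, because deviations within so small a group constrain each other. Entering that number as a replicate block, the response gave 98 calls (90 higher, 8 lower), 97 of them among the 165; the WT difference 9 (0 higher, 9 lower, 9 at least 1.5-fold); the D647V-tetra difference 21 (18, 3 and 18); and the baseline 74 (34, 40 and 49). With this block 17 response calls of named genes ended, among them Tgm2, Gata3, Rnd1 and Bhlhe41 (adjusted p of up to 0.12 by edgeR for these). For the WT difference 5 ended, those of Tsc22d3, Glul, Map7d2, Ccn2 and Dusp4 (up to 0.334). For the D647V-tetra difference 5 ended, those of Aldh1a7, Ccl2, Cxcl5, Plau and Sik1 (up to 0.32), and for the baseline 6. With the block, the baseline compares the levels fitted for replicate 1 of each line. Its 74 calls and 6 lost calls therefore cannot bear on pairing. Depth limits genes such as Lcn2, with few EtOH reads.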
